A study of Mus musculus with 8 samples.

Results

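The interferon-stimulated genes examined here were 44 mouse genes that cells transcribe more strongly after they sense an interferon. They were chosen by symbol, from a list of classical interferon targets, and all 44 were found among the 52325 genes of the count table and passed the filter on low counts, which left 18174 genes. The question put to them was whether an interferon response forms part of the immune change of the endometrium in mice with a mutant thyroid hormone receptor. The 8 RNA-seq libraries were of endometrium that had been cut by laser-capture microdissection from frozen uterine sections, 4 from wild-type (WT) mice and 4 from Thra1PV/+ mice. Thra1PV/+ mice carry the dominant negative PV mutation of thyroid hormone receptor α1 in 1 allele of Thra in every cell, and their controls carry none. Mice of both genotypes were female and matched at metestrus. Their ages were not given in the sources used here, and whether each library came from a separate mouse is stated only by the group size, so that a p-value measures the spread between these libraries.

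Interferons are secreted proteins that warn tissue of viruses and other microbes. Type I interferons signal through the receptor subunits IFNAR1 and IFNAR2, and type III interferons through IFNLR1 and IL10RB. In both cases the kinases JAK1 and TYK2 switch on a complex that holds STAT2 and IRF9 and binds the interferon-stimulated response element (ISRE) in the promoters of their targets. Interferon γ acts through IFNGR1, IFNGR2, JAK1 and JAK2, and its targets are known for another element, the γ-activated site (GAS). The uterine epithelium has an interferon of its own, interferon ε, which is made without infection and varies with the reproductive cycle.

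The response element is shown in the promoters of 6 genes picked from those that hold it: the most abundant gene of 3 role groups (Ifit1, Isg15 and Irgm1), a pair with a wide spread between libraries (Ifit3 and Oas3) and the gene with the narrowest (Gbp7). Each line gives the 150 bases before the annotated start, 5′ to 3′ on the strand of the gene, from RefSeq (GRCm38.p6), with each match to the ISRE core (GAAA, any 2 bases, GAAA) on either strand in capitals, overlapping matches merged.
Ifit1, chr19:34640739-34640888, + strand: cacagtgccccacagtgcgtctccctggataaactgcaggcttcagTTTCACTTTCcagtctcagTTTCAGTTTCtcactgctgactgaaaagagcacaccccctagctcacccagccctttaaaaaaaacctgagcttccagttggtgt
Ifit3, chr19:34583379-34583528, + strand: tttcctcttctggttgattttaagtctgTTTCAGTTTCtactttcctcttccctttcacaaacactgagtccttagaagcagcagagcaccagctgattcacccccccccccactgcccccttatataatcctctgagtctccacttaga
Oas3, chr5:120777660-120777809, − strand: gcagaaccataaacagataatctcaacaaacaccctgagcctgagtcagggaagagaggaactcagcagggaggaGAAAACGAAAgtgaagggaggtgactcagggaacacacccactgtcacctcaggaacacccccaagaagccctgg
Isg15, chr4:156200819-156200968, − strand: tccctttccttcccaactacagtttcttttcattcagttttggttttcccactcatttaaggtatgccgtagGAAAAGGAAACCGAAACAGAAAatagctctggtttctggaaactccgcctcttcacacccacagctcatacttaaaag
Irgm1, chr11:48871421-48871570, − strand: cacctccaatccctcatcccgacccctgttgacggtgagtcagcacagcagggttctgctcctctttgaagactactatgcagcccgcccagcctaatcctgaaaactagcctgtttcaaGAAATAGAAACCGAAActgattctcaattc
Gbp7, chr3:142530186-142530335, + strand: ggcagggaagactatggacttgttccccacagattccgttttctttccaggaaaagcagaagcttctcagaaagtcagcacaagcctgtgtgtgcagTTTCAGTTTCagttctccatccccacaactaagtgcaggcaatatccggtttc

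RefSeq promoters were matched for 34 of the 44 genes. Within the 250 bases before the start, 17 of the 34 (50%) held the ISRE core, against 3.46% of the 27025 genes with a promoter. The GAS letters (TTC, any 3 bases, GAA, on either strand) were present in 8 of the 34 (23.5%), against 8.13% of all genes. The 17 genes are spread over 6 of the 8 role groups described below, and the promoters of Oasl2, Lgals3bp, Ifi44, Ddx58 and Irf7, each the most abundant gene of its role group, held no ISRE match in this window. A match is a run of letters, not a measured binding site.

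Total counts ranged from 48791602 to 59818887 per library, and the smallest count of any of the 44 genes in any library was 156, so that counting error was small beside the spread between libraries. Levels are given as CPM, counts scaled to the library size after TMM normalization. Some libraries stood apart in markers of other tissue. The summed level of 8 smooth muscle markers was 13143 CPM in WT library 1. It was 573 to 1146 CPM in the other WT libraries and 146 to 687 CPM in Thra1PV/+ libraries. In the edgeR test described below, all 8 were lower in Thra1PV/+ at an unadjusted p under 0.05, against 9.77% of all tested genes in either direction. Their median log2 fold change was −3.96, and 0 were called. The summed level of 8 endometrial stroma markers was 5910 to 6308 CPM in Thra1PV/+ library 1 and in WT libraries 1 and 2, and 489 to 2083 CPM in the other 5. All 8 had a negative log2 fold change (median −0.83), 1 of them at an unadjusted p under 0.05 in edgeR, and 0 were called. In bulk tissue, a difference in the tissue cut, fewer cells of a type and less RNA per cell cannot be told apart.

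No difference between Thra1PV/+ and WT endometrium was called in any of the 44 interferon-stimulated genes. Calls needed an at least 2-fold difference and an adjusted p of at most 0.1 in edgeR's quasi-likelihood test, with Benjamini-Hochberg adjustment over all tested genes. By this rule 0 of 44 were called, against 180 of 18174 tested genes (0.99%; 0.924% higher and 0.066% lower in Thra1PV/+). At an unadjusted p under 0.05 the count of the 44 was also 0, against 9.77% of all tested genes. DESeq2 called 0 of 44, against 3.64% of the genes to which it gave an adjusted p, and gave an unadjusted p under 0.05 to 0 of 44, against 8.82%. In 0 of 44 did the 4 Thra1PV/+ libraries lie wholly above or below the 4 WT libraries, against 6.04% of all tested genes (3.55% above and 2.49% below). The lowest adjusted p of the 44 in edgeR was 0.775, for Gbp3.

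The differences were small and went both ways. The log2 fold change of Thra1PV/+ over WT was positive for 23 genes and negative for 21, with a median of 0.01, beside a median of −0.05 over all tested genes. It ranged from −0.38 for Gbp3, a guanylate-binding GTPase, to 0.65 for Oasl1, an oligoadenylate synthetase-like protein. In all 44 genes the size of the difference was below the SD between libraries of the same genotype, and the 95% interval held 0. How much of a change the data can bound varied from gene to gene. The interval stayed within a 2-fold change in either direction for 16 genes. It reached a 2-fold increase for 25 genes and a 2-fold decrease for 25, of which 22 reached both. The narrowest belonged to Gbp7 (−0.43 to 0.41), and that of Oasl1 ran from −1.26 to 2.57.

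**Figure D1:**
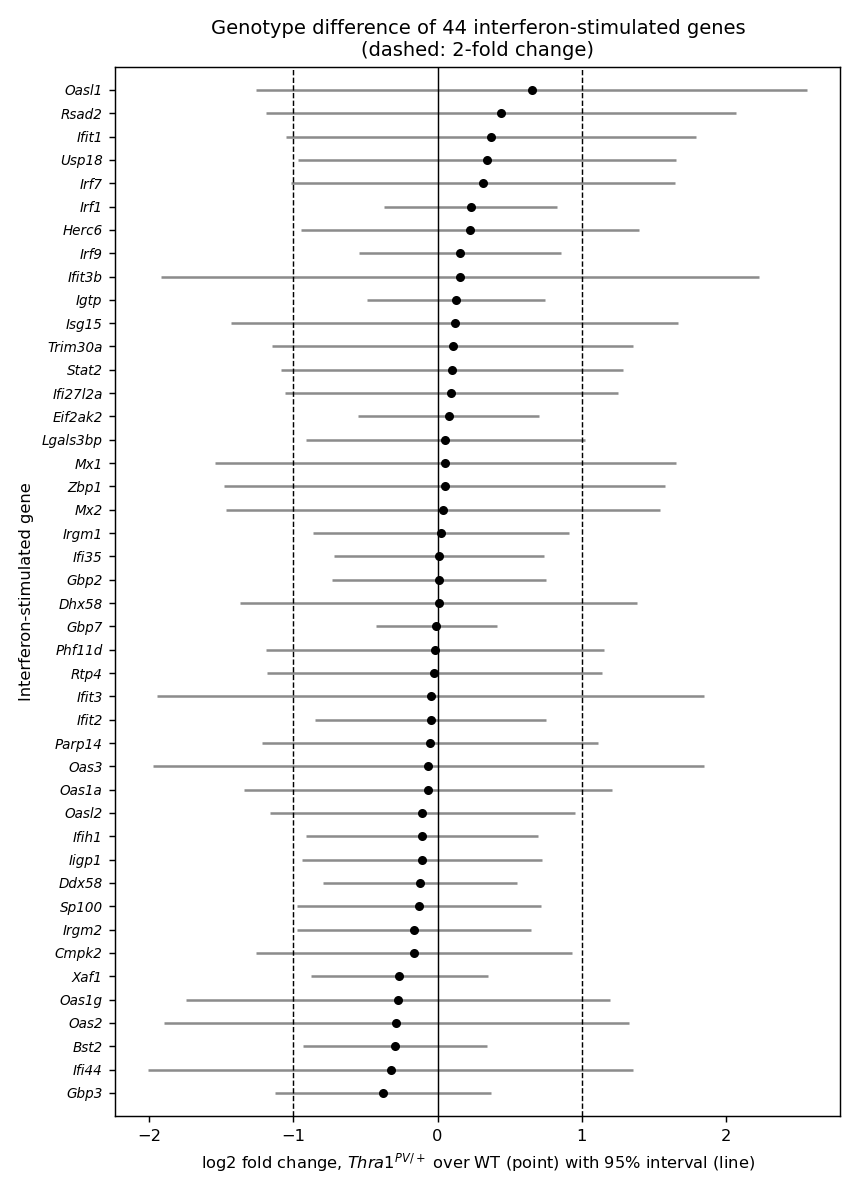
Log2 fold change of Thra1PV/+ over WT (x axis) for each of the 44 interferon-stimulated genes (y axis, in order of the fold change), 4 libraries a genotype. Points are edgeR estimates, lines are 95% intervals and dashed lines mark a 2-fold change; all 44 intervals cross 0, and 16 lie within the dashed lines.

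The genes moved a great deal between libraries of one genotype. Their summed level was 1944, 4746, 4539 and 2526 CPM in Thra1PV/+ libraries 1 to 4, and 2896, 1313, 5131 and 4286 CPM in WT libraries 1 to 4. Both the lowest and the highest sums were in WT libraries, 3.91-fold apart, and the 4 sums of Thra1PV/+ lay between them. The mean was 3439 ± 1413 CPM (SD, n = 4) in Thra1PV/+ and 3406 ± 1672 CPM (SD, n = 4) in WT endometrium.

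The libraries kept nearly the same order from gene to gene. WT library 2 was the lowest WT library for all 44 genes after TMM normalization, while it was the lowest for 21.8% of all tested genes. It remained so for 43 of 44 when libraries were scaled by size alone or when the deposited TPM values were used. Among Thra1PV/+ libraries, library 1 was lowest for 34 genes (33.4% of all tested genes) and library 4 for 8. The highest Thra1PV/+ library was library 2 for 27 genes and library 3 for 15. In WT, library 3 was highest for 32 genes and library 4 for 9.

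**Figure D2:**
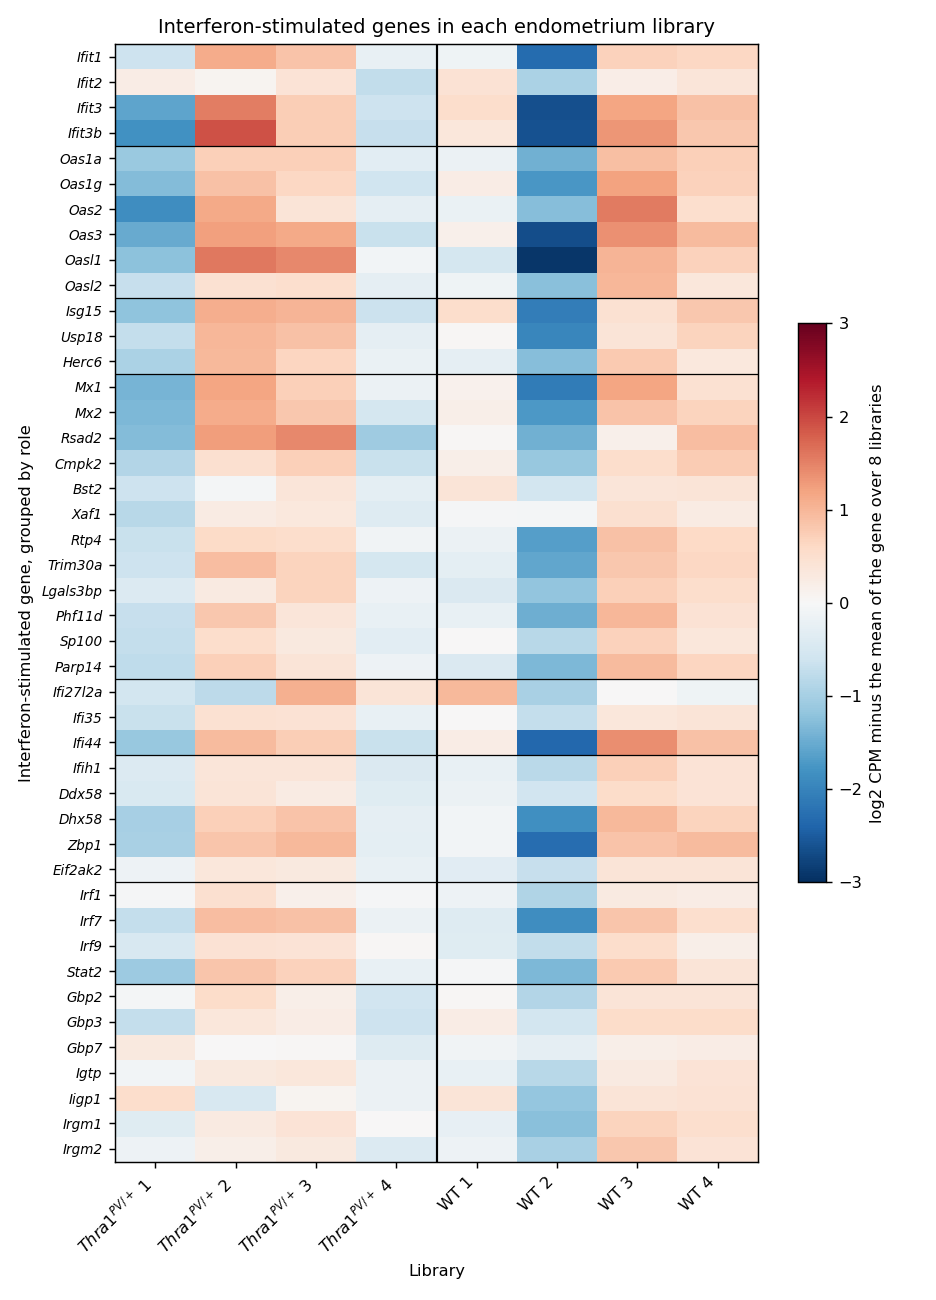
Level of each interferon-stimulated gene (y axis, grouped by role, black lines between groups) in each library (x axis), as log2 CPM minus the mean of that gene over the 8 libraries (colour). The column of WT library 2 is the lowest WT column for all 44 genes, and high and low columns occur in both genotypes.

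The spread was wider than for genes at large. The SD of log2 CPM between libraries of one genotype had a median of 0.87 over the 44 genes, 0.45 over all tested genes and 0.28 over the 9886 tested genes with mean levels in the range of the 44. The ratio of the highest to the lowest of the 8 libraries had a median of 4.73 over the 44 genes and 2.60 over all tested genes. It ran from 1.60 for Gbp7 to 23.3 for Ifit3b.

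The roles differed in how widely their genes spread. IFIT genes had the largest median ratio of highest to lowest library, 14.4, followed by the OAS family with 9.19 and the ISG15 conjugation genes with 7.90. The Mx and other effectors (5.20), the IFI genes (4.12) and the transcription factors (3.58) lay between. The nucleic acid sensors (2.87) and the interferon-γ-inducible GTPases (2.71) had the smallest. These are descriptions of 8 libraries, and the differences between roles were not tested.

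**Figure D3:**
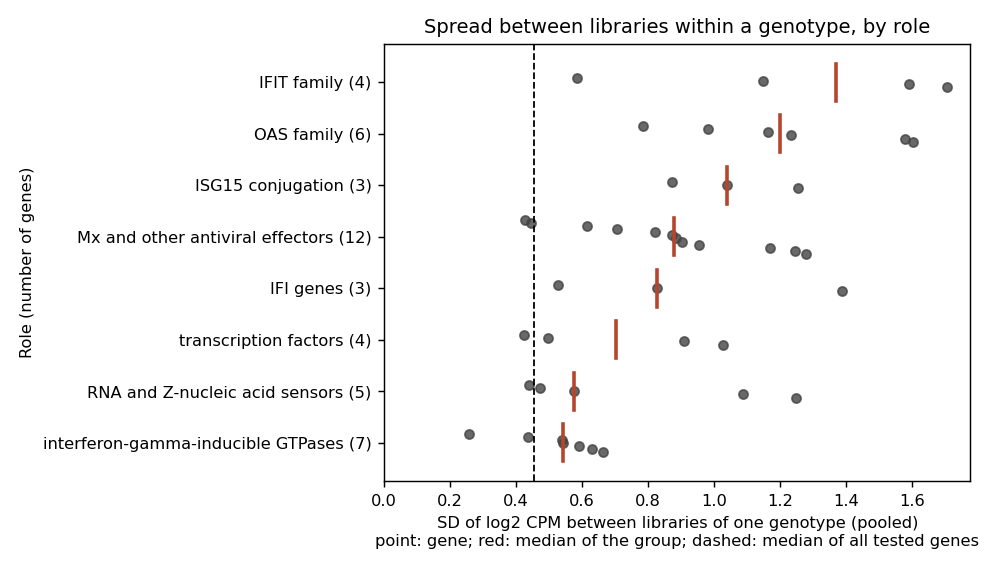
Pooled SD of log2 CPM between libraries of one genotype (x axis) for each interferon-stimulated gene (points), by role (y axis, with the number of genes). Red lines are medians of a role, from 0.54 in the GTPases to 1.37 in the IFIT family, and the dashed line is the median of all tested genes, 0.45.

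The IFIT proteins bind viral RNA and block its translation. Ifit1 (ENSMUSG00000034459.8, chr19:34640871-34650009, GRCm38), the most abundant of the 4 by CPM, measured 47.1, 157, 130 and 61.2 CPM in Thra1PV/+ libraries 1 to 4, and 65.5, 14.6, 115 and 110 CPM in WT libraries 1 to 4. WT library 2 was the lowest of all 8, and the other 7 libraries overlapped between the genotypes. Its log2 fold change was 0.37 ± 0.62 (SE), with an adjusted p of 0.900 in edgeR. The other 3, Ifit2, Ifit3 and Ifit3b, had log2 fold changes from −0.05 to 0.15. Ifit3b had the widest range of the 44 genes, from 4.44 CPM in WT library 2 to 104 CPM in Thra1PV/+ library 2. Ifit3 and Ifit3b are near copies: 61.8% of the 31-base words of Ifit3 transcripts also occur in other genes. Matches to Ifit3b transcripts were the most numerous, so the division of reads between the 2 is uncertain.

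The oligoadenylate synthetases make the messenger that activates RNase L on double-stranded RNA, and OASL1 is a related protein without that activity. Oasl2 (ENSMUSG00000029561.17, chr5:114896936-114912234) measured 117, 258, 267 and 156 CPM in Thra1PV/+ libraries 1 to 4 and 172, 78.9, 373 and 235 CPM in WT libraries 1 to 4. The lowest and the highest value were both WT. Its log2 fold change was −0.11 ± 0.46 (SE; adjusted p = 0.969, edgeR), a sign that turned to 0.01 with scaling by library size alone. The other OAS genes gave −0.29 (Oas2), −0.27 (Oas1g), −0.07 (Oas1a) and −0.06 (Oas3), and Oasl1 gave 0.65 ± 0.84 (SE). Oasl1 ran from 5.98 CPM in WT library 2 to 135 CPM in Thra1PV/+ library 2, so that the fold change rested on an SE larger than itself. Oas1a and Oas1g share much of their sequence (68.8% of the 31-base words of Oas1a occur elsewhere), and their reads cannot be divided with certainty.

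ISG15 is a ubiquitin-like protein that is joined to other proteins during the response, HERC6 is the mouse ligase of that reaction and USP18 removes ISG15 and damps signalling at the type I receptor. Isg15 (ENSMUSG00000035692.6, chr4:156199424-156200818) measured 25.8, 125, 121 and 38.2 CPM in Thra1PV/+ libraries 1 to 4 and 85.9, 14.1, 81.4 and 104 CPM in WT libraries 1 to 4. Each genotype held high and low libraries, with WT library 2 lowest. This gave a log2 fold change of 0.12 ± 0.68 (SE; adjusted p = 0.978, edgeR). Usp18 gave 0.34 ± 0.57 (SE) and Herc6 gave 0.22 ± 0.51 (SE). All 3 were positive and none was near its threshold.

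The 12 antiviral effectors include the Mx GTPases, viperin (Rsad2), tetherin (Bst2), which holds budding virus at the cell surface, and Lgals3bp, a secreted glycoprotein that binds galectins. Lgals3bp (ENSMUSG00000033880.11, chr11:118392751-118402092) was the most abundant by CPM, with 189, 299, 397 and 224 CPM in Thra1PV/+ libraries 1 to 4 and 186, 111, 410 and 361 CPM in WT libraries 1 to 4. The WT range enclosed that of Thra1PV/+ at both ends, with its highest and lowest library 3.70-fold apart, against 2.10-fold in Thra1PV/+. Its log2 fold change was 0.05 ± 0.42 (SE; adjusted p = 0.983, edgeR). Of the 12, 5 were positive and 7 negative, from −0.29 for Bst2 to 0.44 for Rsad2. Bst2 had the highest mean level per transcript length of all 44 genes (425 TPM in the deposited table), and Ifit2 the lowest (5.06 TPM). The Bst2 interval, −0.93 to 0.34, left no room for a 2-fold change. Those of Mx1 (−1.55 to 1.65) and Mx2 (−1.47 to 1.54), whose proteins trap viral particles, did.

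Among the 3 IFI genes, Ifi44 (ENSMUSG00000028037.13, chr3:151730922-151749960) measured 24.4, 104, 89.4 and 33.9 CPM in Thra1PV/+ libraries 1 to 4 and 63.4, 10.45, 142 and 99.6 CPM in WT libraries 1 to 4. The WT libraries enclosed the Thra1PV/+ libraries at both ends. The log2 fold change was −0.32 ± 0.74 (SE; adjusted p = 0.933, edgeR), and it was 0.03 on log2(TPM + 1), so its sign was not fixed by these data. Ifi27l2a departed from the common order: its highest Thra1PV/+ library was library 3 (93.9 CPM), its highest WT library was library 1 (87.3 CPM), and Thra1PV/+ library 2 held 26.0 CPM.

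The sensors of foreign nucleic acid are themselves induced by interferon. Ddx58, which encodes RIG-I (ENSMUSG00000040296.15, chr4:40203773-40239828), measured 50.1, 89.6, 80.9 and 53.2 CPM in Thra1PV/+ libraries 1 to 4 and 60.3, 46.4, 101 and 90.9 CPM in WT libraries 1 to 4. These 8 values were within 2.17-fold of each other. Ddx58 had a log2 fold change of −0.12 ± 0.29 (SE; adjusted p = 0.937, edgeR), and its interval, −0.80 to 0.55, lay within a 2-fold change. So did those of Ifih1, which encodes MDA5 (−0.91 to 0.70), and of Eif2ak2, the kinase PKR that halts translation (−0.55 to 0.71). Dhx58 and Zbp1, the sensor of Z-form nucleic acid, had log2 fold changes of 0.01 and 0.05 with intervals past 2-fold on both sides.

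STAT2 and IRF9 are parts of the complex that switches the other genes on, and IRF7 amplifies type I interferon. Irf7 (ENSMUSG00000025498.15, chr7:141262706-141266481) measured 144, 453, 438 and 209 CPM in Thra1PV/+ libraries 1 to 4 and 180, 64.9, 420 and 334 CPM in WT libraries 1 to 4. The low and the high libraries were those of the other genes. Its log2 fold change was 0.31 ± 0.58 (SE; adjusted p = 0.912, edgeR). Irf1 gave 0.23 ± 0.26 (SE), Irf9 0.15 ± 0.31 (SE) and Stat2 0.10 ± 0.52 (SE). All 4 were positive, at sizes below the spread between libraries, and the intervals of Irf1 (−0.37 to 0.83) and Irf9 (−0.55 to 0.86) stayed under a 2-fold change.

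The guanylate-binding and immunity-related GTPases attack the vacuoles of intracellular microbes and answer to interferon γ more than the other groups do. Irgm1 (ENSMUSG00000046879.7, chr11:48861968-48871683) measured 91.6, 142, 156 and 117 CPM in Thra1PV/+ libraries 1 to 4 and 98.8, 49.04, 185 and 166 CPM in WT libraries 1 to 4. Both ends of the range were WT. The log2 fold change was 0.02 ± 0.39 (SE; adjusted p = 0.991, edgeR). The 7 GTPases ran from −0.38 for Gbp3 to 0.13 for Igtp, with 3 positive, and the intervals of 6 stayed within a 2-fold change in both directions, the exception being Gbp3 (−1.13 to 0.37). Gbp7 was the steadiest of the 44, at 31.5, 25.8, 26.3 and 19.7 CPM in Thra1PV/+ libraries 1 to 4 and 23.7, 21.4, 29.0 and 30.0 CPM in WT libraries 1 to 4. The annotated positions of Igtp and Irgm2 overlap, and 15.9% of the 31-base words of Igtp occur elsewhere. Matches to Irgm2 transcripts were the most numerous.

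The pathway that leads to these genes was followed in 74 further genes, of which 54 were tested. Of the 54, 0 were called by edgeR, against 0.99% of all tested genes. The log2 fold change was positive for 39 and negative for 15, with a median of 0.16. Over all tested genes, 43.2% were positive and the median was −0.05. At an unadjusted p under 0.05, 2 were higher and 1 was lower in Thra1PV/+, 3 of 54 against 9.77% of all tested genes.

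Interferon transcripts were scarce but for interferon ε. Of 21 interferon genes, 14 had 0 counts in all 8 libraries, among them most interferon α genes. Ifna1 (2 counts) and Ifna7 (5 counts) were found only in Thra1PV/+ library 4, and Ifnb1 (5 counts) and Ifnl2 (8 counts) only in Thra1PV/+ library 2. Ifng had 19, 2, 5 and 20 counts in Thra1PV/+ libraries 1 to 4 and 12, 14, 1 and 1 in WT libraries 1 to 4, and its log2 fold change was 0.67 ± 0.93 (SE; adjusted p = 0.874, edgeR). Ifnz had 16, 13, 20 and 0 counts in Thra1PV/+ libraries 1 to 4 and 0, 2, 29 and 10 counts in WT libraries 1 to 4. No difference between genotypes was called in either. Ifne, which encodes interferon ε, measured 2.15, 7.85, 12.4 and 6.11 CPM in Thra1PV/+ libraries 1 to 4 and 4.77, 2.13, 26.7 and 10.7 CPM in WT libraries 1 to 4. Its low libraries, Thra1PV/+ library 1 and WT library 2, and its highest, WT library 3, were also low and high for the sum of the interferon-stimulated genes. The log2 fold change of Ifne was −0.64 ± 0.78 (SE; adjusted p = 0.857, edgeR), and without WT library 3 it was 0.30.

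All 6 receptor subunits were expressed. Ifnar1 and Ifnar2 had log2 fold changes of 0.23 ± 0.19 and 0.19 ± 0.18 (SE), Ifngr1 and Ifngr2 of 0.15 ± 0.31 and 0.14 ± 0.53 (SE), Ifnlr1 of 0.36 ± 0.30 (SE) and Il10rb of −0.03 ± 0.31 (SE), with 0 of 6 at an unadjusted p under 0.05. Among 10 genes of JAK-STAT signalling, 5 were positive and 5 negative. Jak2, the kinase of the interferon γ receptor and of many cytokine receptors, was the 1 gene there at an unadjusted p under 0.05. It measured 148, 122, 112 and 130 CPM in Thra1PV/+ libraries 1 to 4 and 130, 335, 288 and 168 CPM in WT libraries 1 to 4. WT library 1 lay among the Thra1PV/+ libraries, and the log2 fold change of −0.85 ± 0.30 (SE) did not pass adjustment (adjusted p = 0.391, edgeR).

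Of 14 genes that sense nucleic acid or relay that signal towards interferon transcription, 10 were positive. Irf5, a transcription factor of myeloid and B cells, measured 19.7, 19.7, 17.9 and 15.5 CPM in Thra1PV/+ libraries 1 to 4 and 14.7, 8.18, 7.22 and 12.9 CPM in WT libraries 1 to 4. It was the 1 of 54 tested pathway genes whose genotypes did not overlap, against 6.04% of all tested genes. Its log2 fold change was 0.76 ± 0.26 (SE), with an adjusted p of 0.365 in edgeR. Among the 6 other interferon regulatory factors, 5 were positive and none had an unadjusted p under 0.05.

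The 15 tested targets of interferon γ and genes of antigen processing had 12 positive log2 fold changes, with a median of 0.17. Cd274, which encodes the T-cell inhibitory ligand PD-L1, was the 1 at an unadjusted p under 0.05. It measured 9.40, 44.8, 11.7 and 5.53 CPM in Thra1PV/+ libraries 1 to 4 and 2.90, 3.52, 3.86 and 7.10 CPM in WT libraries 1 to 4. Thra1PV/+ library 4 lay below WT library 4, and library 2 stood far above the rest. The log2 fold change was 2.04 ± 0.66 (SE) with an adjusted p of 0.352 in edgeR, and it fell to 1.03 when Thra1PV/+ library 2 was left out. In DESeq2 the log2 fold change of Cd274 was 2.07 with an adjusted p of 0.0475, which met the rule for a call. Cxcl10, a chemokine induced by all interferons, gave −0.83 ± 0.92 (SE), and B2m, the light chain of class I MHC, gave 0.06 ± 0.21 (SE).

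The level of epithelial markers also varied between libraries of one genotype. In edgeR 0 of 8 simple epithelium markers were called, against 0.99% of all tested genes. Their summed level was 2159, 4644, 5410 and 3884 CPM in Thra1PV/+ libraries 1 to 4 and 2243, 2943, 6302 and 5881 CPM in WT libraries 1 to 4. In both genotypes the library pairs that were highest in this sum, Thra1PV/+ libraries 2 and 3 and WT libraries 3 and 4, were also highest in the sum of the interferon-stimulated genes. At the low end the orders parted in WT only. WT library 1 was the lowest WT library for simple epithelium, while its interferon-stimulated sum, 2896 CPM, was above the 1313 CPM of WT library 2. In Thra1PV/+, library 1 was lowest and library 4 next in both sums. The 8 uterine gland markers, 3 of which did not pass the filter, gave 4606, 9990, 11376 and 8634 CPM in Thra1PV/+ and 2986, 1469, 16185 and 12441 CPM in WT libraries 1 to 4. WT library 2 was lowest there, but nearly all of this sum was Ltf, the secreted lactoferrin (1290 of 1469 CPM in WT library 2). Without Ltf, the sum was 72.1 to 190.1 CPM in Thra1PV/+ and 133, 179, 164 and 219.5 CPM in WT libraries 1 to 4, and WT library 2 was not the lowest. Endometrial stroma markers were highest in other libraries, with 6308 CPM in Thra1PV/+ library 1 and 5912 and 5910 CPM in WT libraries 1 and 2. Divided by the simple epithelium sum, the interferon-stimulated sum was 0.900, 1.02, 0.839 and 0.650 in Thra1PV/+ and 1.29, 0.446, 0.814 and 0.729 in WT libraries 1 to 4, still with WT values at both ends. The part of these markers in the levels of the interferon-stimulated genes was not tested.

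With the mean log2 CPM of the simple epithelium markers as a second term in the edgeR fit, a choice made after seeing the data, the median SE of the 44 genes fell from 0.51 to 0.33. The median SE of all tested genes fell too, from 0.33 to 0.25. Again 0 of the 44 were called and 0 of the 44 had an unadjusted p under 0.05. The log2 fold changes then ran from −0.41 to 0.60, with 20 positive and a lowest adjusted p of 0.407, while the number of called genes overall went from 180 to 500.

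**Figure D4:**
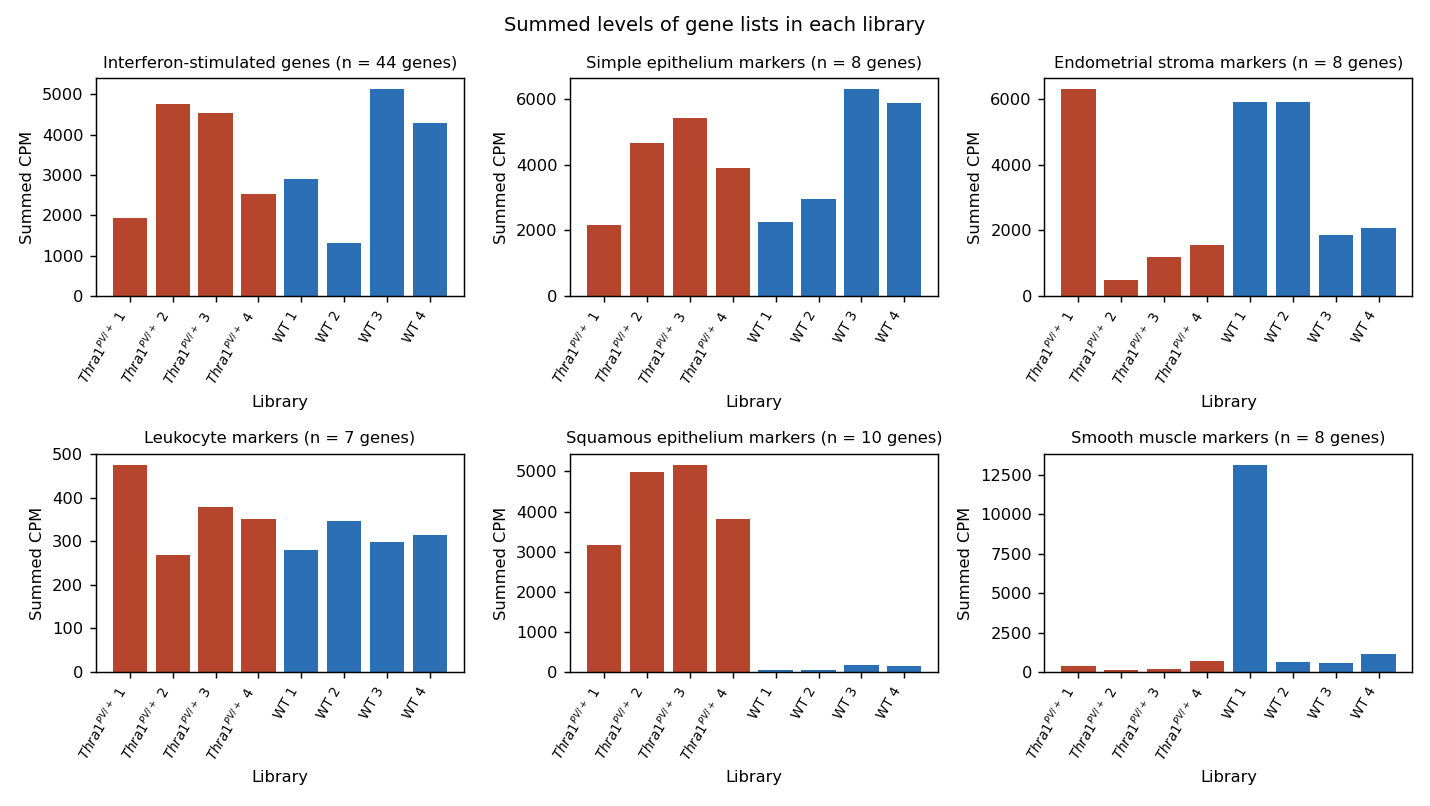
Summed CPM (y axis, from 0, a separate scale in each panel) of the interferon-stimulated genes and of 5 lists of cell type markers in each library (x axis; red, Thra1PV/+; blue, WT). The interferon-stimulated sum is lowest in WT library 2 (1313 CPM) and highest in WT library 3 (5131 CPM); squamous markers separate the genotypes, and smooth muscle markers are highest in WT library 1.

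In edgeR 8 of 10 squamous epithelium markers were called and higher in Thra1PV/+, against 0.924% of all tested genes. Their summed level was 3172, 4985, 5172 and 3817 CPM in Thra1PV/+ libraries 1 to 4 and 47.1, 59.6, 176 and 147 CPM in WT libraries 1 to 4. Within each genotype, the libraries stood in the same order for this sum as for the simple epithelium sum. Leukocyte markers had another order. The sum of 7 markers that all leukocytes carry was 476, 269, 378 and 351 CPM in Thra1PV/+ libraries 1 to 4 and 281, 346, 298 and 315 CPM in WT libraries 1 to 4. Thra1PV/+ library 1, the highest for leukocytes, was the lowest Thra1PV/+ library for the interferon-stimulated sum. Of these 7 genes, 0 were called, 3 were higher at an unadjusted p under 0.05 and 1, the integrin subunit Itgb2, did not overlap between genotypes. Over all tested genes these shares, in either direction, were 0.99%, 9.77% and 6.04%. Of 8 T cell markers, 4 were higher at an unadjusted p under 0.05 and 0 were called, and of 7 tested neutrophil markers these counts were 4 and 0. Of 6 tested B and plasma cell markers they were 3 and 0. Natural killer and cytotoxic cell markers went the other way, with 7 of 8 negative, a median log2 fold change of −1.04 and 0 at an unadjusted p under 0.05. Of 7 tested macrophage markers, 6 were positive and 0 had an unadjusted p under 0.05. The neutrophil sum was 169, 739, 305 and 80.2 CPM in Thra1PV/+ libraries 1 to 4 and 62.9, 10.54, 14.9 and 146 CPM in WT libraries 1 to 4. WT library 3, the highest of all 8 for the interferon-stimulated sum, was thus among the lowest for neutrophils. Plasmacytoid dendritic cells, a rich source of type I interferon, had 6 listed markers, of which 4 were tested. Of these, 2 were positive, 2 were negative and 0 were called. Siglech was below 1 CPM in all 8 libraries, while Klk1 ran from 0.349 CPM in Thra1PV/+ library 1 to 18.6 CPM in WT library 3. The summed level of this list was lowest in WT library 2 (1.55 CPM) and highest in WT library 3 (19.2 CPM). Klk1 alone made up 18.6 CPM of the sum in WT library 3 and 0.578 CPM in WT library 2. The other tested markers, Siglech, Cox6a2 and Pacsin1, were each lower in WT library 3 than in WT library 2. The part of this list in the interferon-stimulated levels was not tested.

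The outcome did not depend on single libraries as far as calls are concerned, but the direction of the small differences did. With each library left out in turn, 0 of 44 genes were called in all 8 fits. The median log2 fold change was −0.25 without WT library 2, with 7 of 44 positive, and 0.31 without WT library 3, with 38 of 44 positive. Without WT library 1, which held the smooth muscle signal, it was near 0, with 22 positive. It was 0.24 without Thra1PV/+ library 1 (36 positive) and −0.20 without Thra1PV/+ library 2 (11 positive). At 4 libraries a genotype and the spread found here, a 2-fold change in either direction of 22 of the 44 genes therefore lies within the interval of the data, while for 16 it lies outside.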

How the data were processed

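Endometrium laser-captured from 4 WT and 4 Thra1PV/+ mice was profiled by paired-end RNA-seq. The authors prepared stranded mRNA libraries, trimmed reads with Trimmomatic and quantified transcripts with Salmon for mm10. Versions, annotation release and strand setting are not given in the sources used here. Whether reads of overlapping antisense genes were separated is therefore not known. The deposited table holds estimated counts per gene, not normalized (71.0 to 78.5% of values per library, zeros included, exactly whole), and was rounded to whole numbers. The deposited TPM table proved quantile-normalized (sorted values within 0.291 TPM between libraries); 1 of its columns, headed as a WT sample that the labels do not list, was not used. Identifiers without a symbol held at most 0.00896% of counts.

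Genes passing filterByExpr (minimum count 10, minimum total 15) were scaled by TMM and compared with edgeR 4.0.16 (R 4.3.3), genotype as the only term. Calls required a fold change of at least 2 and an adjusted p (Benjamini-Hochberg, all tested genes) of at most 0.1. SEs came from each fold change and the F value of its test, and log2 CPM used a prior count of 2. DESeq2 1.42.0, limma 3.58.1 on voom values and on log2(TPM + 1) or log2(TPM + 0.1), other scalings and filters, a replicate block and leaving out each library were alternatives. The exact permutation test over 70 arrangements cannot give a p below 0.0286; for the 44 genes the lowest was 0.229. Scripts were tested on simulated data. Positions are from GENCODE release M21 (41 of 44 genes with the same identifier version).

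The 44 genes, their role groups, the pathway lists and the cell type markers were chosen with earlier results of these data known. Values in every library are given for the gene with the highest mean CPM in each role group, for pathway genes at an unadjusted p under 0.05 or without overlap, and for interferon genes with any count; Gbp7 was added after its values were seen, and other genes are named as ends of a range or as parts of a role group.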

Additional observations from a re-analysis of the deposited data

Results flagged for a closer look

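In 7 of 112 groups of 4 libraries, 1 library lay so far from the other 3 that its gap exceeded the 95% critical value of Dixon's test, where chance alone gives about 5.60. In all 7 it was WT library 2, on the low side. The 112 groups were not independent, because most of their genes moved together and some groups were sums of the same genes. The number given by chance is therefore only a rough guide. The gap made up 0.829 of the WT range of Ifit2, where WT library 2 stood at 2.99 on the log2 CPM scale and the other WT libraries between 4.15 and 4.38. It made up 0.829 of the range of Ifit3 (3.17 against 6.34 to 7) and 0.877 of that of Isg15 (3.82 against 6.35 to 6.70). For Bst2 the share was 0.958 (7.16 against 8.08 to 8.12), and for Iigp1, an immunity-related GTPase, it was 0.968 (3.75 against 5.29 to 5.34). For the summed level of the ISG15 conjugation genes it was 0.838 (4.96 against 7.10 to 7.52), and for that of the IFI genes 0.838 (6.03 against 7.67 to 7.99). The total count of this library, 50998530, was within the range of the others. Its summed stroma markers were 5910 CPM, close to the 5912 CPM of WT library 1. Its summed uterine gland markers, 1469 CPM, were the lowest of the 8 libraries, of which 1290 CPM was Ltf; without Ltf the sum was 179 CPM, within the range of the other 7, and Cxcl15 of the same list was highest in this library (122 CPM). The part of these markers in its low interferon-stimulated levels was not tested.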

How the results depend on the processing

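The count of interferon-stimulated genes called stayed at 0 in all 21 alternatives, and 0 of 44 reached an unadjusted p under 0.05 in the 19 that refitted the test; the lowest adjusted p was between 0.407 and 0.878. The count without overlap also stayed at 0. The median log2 fold change of the 44 genes ran from −0.02 to 0.21 over the alternative fits and from −0.25 to 0.31 with a library left out, moves below the SD of their mean level between libraries. Over all genes, 180 calls became 793 with DESeq2, 81 with at least 10 counts in every library, 311 with voom and sample quality weights, 500 with the simple epithelium level as a covariate (added after seeing the data), 1775 at an unadjusted p under 0.05 and 81 to 167 with a library left out. These counts were lowest without Thra1PV/+ library 3 (81), Thra1PV/+ library 2 (116) and WT library 4 (114). The causes were not tested.

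Small log2 fold changes changed sign. Oasl2 went to 0.0090 by library size alone, 0.20 with voom weights, 0.067 with TPM and a pseudocount of 1 and 0.0688 with 0.1; Ifi44 to 0.13, 0.034 and 0.0586 with the last 3 of these; Isg15 to −0.079 with the epithelium covariate; and Ifne to 0.16 with voom weights. With a library left out, the ranges were −0.34 to 0.32 for Oasl2, −0.21 to 0.45 for Isg15, −0.17 to 0.36 for Lgals3bp, −0.68 to 0.15 for Ifi44, −0.28 to 0.0756 for Ddx58, −0.21 to 0.30 for Irgm1 and −1.04 to 0.30 for Ifne. Ifit1, Irf7, Cd274, Irf5 and Jak2 kept their direction in these fits, and the adjusted p of Cd274 ran from 0.0475 (DESeq2) to 0.657.

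Replicate numbers are shared by the genotypes, but the labels do not say that they mark pairs. The deviations of same-numbered libraries correlated at 0.27, −0.44, 0.34 and −0.16. These values have both signs and also carry differences in tissue content, so they cannot decide whether the libraries were paired. With the replicate block, 82 genes were called and 0 of the 44, their median log2 fold change was −0.01 and that of Isg15 turned to −0.0086.

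Depth did not limit these genes, whose smallest count was 156; the spread between 4 libraries a genotype did. Interferon genes other than Ifne had at most 29 counts in a library.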
